A study of Mus musculus with 15 samples.

Results

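The comparison described here set the nuclear RNA of ventral tegmental dopamine neurons after 21 days of abstinence from self-administered cocaine against the same cells at the end of cocaine maintenance. It rests on 7 of the 15 libraries of the study, 4 at abstinence and 3 at maintenance, chosen by the stage and cell population that the sample titles give. All mice were male, heterozygous for DAT-Cre (B6.SJL-Slc6a3tm1.1(cre)Bkmm/J) and 8 to 12 weeks old, and all had received AAV5-DIO-KASH-HA in the ventral tegmental area 14 days before lever training for food, which ran over 7 days. The maintenance mice then took intravenous cocaine in daily 1 hour sessions, first 5 days at 0.3 mg/kg for each infusion, then 10 days at 1.0 mg/kg, and were killed after the last session. The abstinence mice had the same 15 days of cocaine and then 21 days in the home cage without it. Food-trained mice, without cocaine, gave the 4 other dopaminergic libraries, which entered the fit to estimate the spread, and 4 libraries of HA-negative (non-dopaminergic) nuclei.

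Each library held the tissue of 2 pooled mice, and different mice were used at each stage. The labels do not say more about how samples of a group were separated, so p-values measure the spread between these pools. The HA tag marks nuclei through Cre driven from the dopamine transporter locus, and cells that the virus did not reach are missed. With no saline self-administration group and no cocaine-naive group of the same age as the abstinence mice, time, age and the end of cocaine intake cannot be told apart.

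Dopamine neurons of the ventral tegmental area project to the striatum and the prefrontal cortex, and their firing reports reward and the cues that predict it. Cocaine blocks the dopamine transporter (Slc6a3), so that released dopamine stays outside the cell for longer. During abstinence the response to drug cues can grow, which is called incubation of craving. Nuclear RNA holds transcripts that are still being made, spliced or retained, so it is closer to transcription than whole-cell RNA and poor in cytoplasmic messages.

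The labelled cell type was checked against its markers. The summed level of 23 dopamine neuron identity genes was 12577 to 15586 CPM (counts scaled to a common library size) in the maintenance libraries and 8194 to 12500 CPM in the abstinence libraries, against 850 to 1227 CPM in the non-dopaminergic libraries. All 4 abstinence libraries were below all 3 maintenance libraries, while the food-trained dopaminergic libraries ran from 9615 to 17817 CPM and overlapped both stages. Glial RNA was present in the sorted nuclei, and how far it was below the non-dopaminergic libraries differed by cell type. The 15 oligodendrocyte markers summed to 1209 to 1776 CPM at maintenance and 1243 to 2102 CPM at abstinence, against 9841 to 23561 CPM in the non-dopaminergic libraries. Astrocyte markers had mean sums of 1185 CPM at maintenance and 966 CPM at abstinence, against 3256 CPM there. The mean sums were 1018 and 945 against 3040 CPM for microglia markers, and 201 and 178 against 401 CPM for oligodendrocyte precursor markers. Total counts ran from 32032303 to 53019621 at maintenance and from 37314334 to 59046618 at abstinence. The maintenance libraries detected 15805 to 17204 genes and the abstinence libraries 17444 to 19750, so these ranges did not overlap. Correlations of log2 CPM were 0.769 to 0.794 within maintenance, 0.823 to 0.868 within abstinence and 0.765 to 0.810 between the stages, each over the genes tested.

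At abstinence 32 genes rose and 2 fell relative to maintenance, out of 19060 tested (edgeR quasi-likelihood test, Benjamini-Hochberg adjusted p under 0.05). This is 0.178% of the genes tested, 0.168% higher and 0.0105% lower. The genes that rose included the integrin subunit Itga7, the chondroitin sulfate enzyme Chpf2, the autophagy protein Trp53inp2, the mitochondrial proteins Fastk, Lars2, Pcx and Pink1, and the potassium channel Kcnh2. The genes that fell were Prr14, which tethers heterochromatin to the nuclear lamina, and Zc3h13, part of the complex that writes N6-methyladenosine on RNA. For all 34 genes the abstinence and maintenance libraries did not overlap, which was so, whatever the test, for 7.56% of the genes tested with abstinence higher and 4.58% with abstinence lower. For all 32 genes that rose, every food-trained dopaminergic library also lay above every maintenance library, and for the 2 that fell, below. The abstinence mean lay inside the food-trained range for 23 of the 32. These values share the maintenance libraries, so they are given for level only. Without the adjustment, 1397 genes were higher at abstinence and 493 lower at p under 0.05, which is 7.33% and 2.59% of the genes tested. Leaving out maintenance replicate 1, 2 or 3 gave 6, 73 or 7 calls, and leaving out abstinence replicate 1, 2 or 3 gave 14, 12 or 6. The DESeq2 test called 732 of the 18598 genes to which it gave an adjusted p, 3.33% higher and 0.608% lower, and limma-voom with quality weights called 30, or 0.157%.

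The 3 maintenance libraries shared a trend against GC-rich transcripts. GC content was taken from the longest annotated transcript of each gene. The slope of log2 CPM on GC content, taken relative to the mean of the 11 dopaminergic libraries, was −0.0290, −0.0178 and −0.0315 per percentage point in maintenance replicates 1, 2 and 3, and 0.0020, 0.0129, 0.0246 and 0.0030 in abstinence replicates 1 to 4. Every maintenance slope was below every abstinence slope, with a difference in means of 0.0368 (exact permutation test, two-sided p = 0.0571, the smallest that 3 against 4 libraries can give). Across 8847 abundant genes the log2 fold change correlated with GC content (Spearman rho 0.338, across genes, which are not independent replicates). Its median was −0.12 in genes with under 40% GC and 0.70 in genes with 60% GC or more. The 34 genes had a median GC content of 58.4%, against 49.5% for all tested genes, and 30 of the 34 lay above the upper quartile of all tested genes. No genes past the threshold were found among the 1023 tested genes with under 40% GC, and 11 among the 774 tested genes with 60% or more, a share of 1.42%. The part of base composition in the changes was not tested beyond the fits with a GC term.

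**Figure D1:**
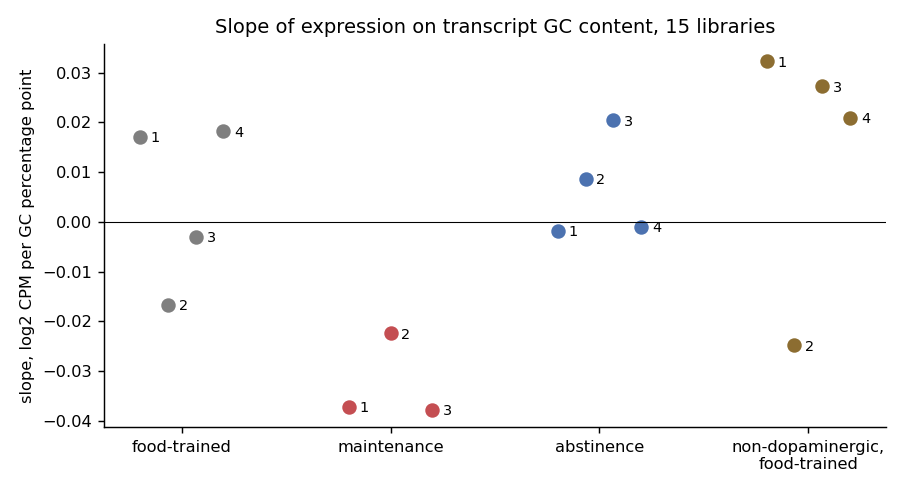
GC slope, in log2 CPM per percentage point of transcript GC, for each of the 15 libraries, taken relative to the mean of all 15, so that values differ from those relative to the 11 dopaminergic libraries. Points are libraries with their replicate numbers; the 3 maintenance libraries and non-dopaminergic replicate 2 lie below the other 11.

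To show what differences in base composition look like, a run of 90 coding bases from the middle of the longest coding exon is shown for 3 genes that rose and for both that fell, with G and C in capitals. These 5 genes were chosen after their values were seen, to span base composition, and do not show the trend, which is a slope over 8116 genes. The sequences are those of GENCODE M21 transcripts on GRCm38, written 5′ to 3′ on the strand of the gene. The first is exon 15 of 15 of Tmem145 (chr7:25315475-25315564, plus strand), and the second exon 4 of 5 of Chpf2 (chr5:24591670-24591759, plus strand). The third is exon 4 of 4 of Zfp871 (chr17:32775137-32775226, minus strand), the gene of lowest GC content among the 34. Those that fell are exon 7 of 11 of Prr14 (chr7:127475294-127475383, plus strand) and exon 14 of 19 of Zc3h13 (chr14:75330619-75330708, plus strand).
Tmem145: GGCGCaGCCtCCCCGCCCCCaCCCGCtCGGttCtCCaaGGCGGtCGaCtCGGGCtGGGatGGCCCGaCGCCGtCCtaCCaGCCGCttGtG
Chpf2: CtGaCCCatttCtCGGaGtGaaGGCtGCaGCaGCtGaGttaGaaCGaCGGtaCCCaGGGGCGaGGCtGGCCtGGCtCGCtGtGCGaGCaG
Zfp871: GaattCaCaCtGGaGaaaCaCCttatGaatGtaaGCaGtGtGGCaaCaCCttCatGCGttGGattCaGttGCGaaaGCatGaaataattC
Prr14: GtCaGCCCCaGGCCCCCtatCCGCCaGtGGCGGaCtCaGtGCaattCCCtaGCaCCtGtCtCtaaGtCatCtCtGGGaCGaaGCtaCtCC
Zc3h13: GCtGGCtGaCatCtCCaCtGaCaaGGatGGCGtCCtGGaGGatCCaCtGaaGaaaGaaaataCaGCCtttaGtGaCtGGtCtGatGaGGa
Of these runs, G and C made up 67 of 90 bases in Tmem145, 57 in Chpf2 and 37 in Zfp871, and 54 in Prr14 and 45 in Zc3h13. Zfp871 thus rose with a transcript GC content of just over 40%, and Prr14 fell with one of 56.2%, both against the direction of the trend.

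Tmem145, a multi-pass membrane protein, had the lowest p. It was at 26.2, 25.4 and 20.8 CPM in the maintenance libraries and at 172, 244, 286 and 189 CPM in the abstinence libraries. The lowest abstinence library stood far above the highest maintenance library. The log2 fold change was 3.21 ± 0.27 (SE; edgeR quasi-likelihood test, adjusted p = 0.00038) and 2.49 with a GC offset in the fit (adjusted p = 0.000987). Food-trained dopaminergic libraries, given for level only since any comparison with them would share the maintenance libraries, held 156 to 221 CPM.

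Itga7, the alpha subunit of a laminin-binding integrin, had 0 counts in all 3 maintenance libraries and 18.8, 18.0, 20.6 and 14.4 CPM at abstinence. Against a floor of 3 counts per library, which covers counting error only, it was 239-fold higher at abstinence (edgeR, adjusted p = 0.00955). Epha8, an ephrin receptor of axon guidance, also had 0 counts in all maintenance libraries. It reached 20.3, 2.15, 12.0 and 21.1 CPM in the abstinence libraries and was 185-fold higher against the same floor (edgeR, adjusted p = 0.0168). Mapkapk2, a kinase that p38 activates, was the third gene with no count at maintenance. It reached 12.8, 4.80, 1.98 and 7.70 CPM at abstinence, which is 90.9-fold higher against that floor (edgeR, adjusted p = 0.0347). With the GC offset Itga7 and Epha8 passed (adjusted p = 0.0159 and 0.0342) and Mapkapk2 did not (adjusted p = 0.0631). The fitted log2 fold change of Mapkapk2, which rests on 0 counts at maintenance, was 11.23 without the offset and 11.15 with it. When each library was left out in turn, Itga7 passed in 7 of 7 fits, Epha8 in 3 and Mapkapk2 in 1. Abstinence replicate 2 for Epha8 and replicate 3 for Mapkapk2 stood lowest among the 4.

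Olig1, a transcription factor of the oligodendrocyte lineage, was at 0.206, 0 and 0 CPM at maintenance and at 32.8, 26.7, 41.7 and 51.6 CPM at abstinence. Its log2 fold change was 8.93 ± 1.10 (SE; edgeR, adjusted p = 0.00955). Its level in the non-dopaminergic libraries was 42.1 to 132.8 CPM. It was the only 1 of 15 oligodendrocyte markers to pass the test, the summed level of the list overlapped between the stages, and Olig2, the partner factor, was at 1.96 ± 3.40 CPM (SD, n = 3) in the maintenance libraries and 0.815 ± 1.05 CPM (SD, n = 4) at abstinence. Mbp, a myelin protein, had a log2 fold change of 1.24 (adjusted p = 0.392) and Sox10 one of 0.66 (adjusted p = 1.00). In bulk nuclei, fewer cells of a type and less RNA per cell cannot be told apart.

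Chpf2, which adds glucuronic acid in the synthesis of chondroitin sulfate, was at 58.5, 75.2 and 51.7 CPM at maintenance and at 233, 386, 303 and 196 CPM at abstinence. The log2 fold change was 2.18 ± 0.29 (SE; edgeR, adjusted p = 0.0117). With the GC offset it was 1.58 and did not pass (adjusted p = 0.0741). Trp53inp2, which helps autophagosomes form, was at 47.1, 49.3 and 38.8 CPM at maintenance and at 136, 138, 150 and 176 CPM at abstinence. The log2 difference, 1.74 ± 0.23 (SE; edgeR test, adjusted p = 0.0117), was 1.56 with the GC offset and passed there (adjusted p = 0.0268). Both genes were without overlap between the stages.

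Leng8 was at 50.1, 116 and 59.02 CPM at maintenance and at 456, 367, 432 and 576 CPM at abstinence (log2 fold change 2.61 ± 0.35, SE; edgeR, adjusted p = 0.0117). Gpr162, an orphan receptor, was at 42.4, 48.0 and 30.5 CPM at maintenance and at 137, 158, 208 and 142 CPM at abstinence (log2 fold change 2.00 ± 0.28, SE; edgeR, adjusted p = 0.0144). Atxn2l, a stress granule protein related to ataxin-2, was at 5.16, 12.6 and 6.71 CPM at maintenance and at 57.3, 56.2, 64.2 and 89.0 CPM at abstinence (log2 fold change 3.03 ± 0.43, SE; edgeR, adjusted p = 0.0144). With the GC offset Leng8 and Atxn2l passed (adjusted p = 0.0332 and 0.0309) and Gpr162 did not (adjusted p = 0.083).

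Several of the genes that rose act in mitochondria, a grouping made after their values were seen. Fastk, of a family that regulates mitochondrial RNA, was at 17.5, 17.4 and 8.22 CPM at maintenance and at 86.9, 72.2, 96.6 and 81.1 CPM at abstinence (log2 fold change 2.55 ± 0.36, SE; edgeR, adjusted p = 0.0144). Lars2, the mitochondrial leucyl-tRNA synthetase, was at 31.9, 58.4 and 32.6 CPM at maintenance and at 266, 149, 193 and 235 CPM at abstinence (log2 fold change 2.37 ± 0.34, SE; edgeR, adjusted p = 0.0144). Pyruvate carboxylase (Pcx), which feeds the citric acid cycle, rose from 1.21 ± 1.29 CPM (SD, n = 3) to 47.3 ± 2.33 CPM (SD, n = 4). All 3 passed with the GC offset as well, with adjusted p of 0.0309, 0.0464 and 0.0309. Pink1, the kinase that starts the removal of damaged mitochondria, rose from 44.5 ± 13.3 CPM (SD, n = 3) to 132 ± 10.8 CPM (SD, n = 4), and its log2 fold change of 1.57 became 0.95 with the GC offset (adjusted p = 0.245). Of 39 nuclear genes of oxidative phosphorylation, 0 passed with edgeR, DESeq2 or limma-voom, and 1 was higher and 1 lower at an unadjusted p under 0.05 by edgeR. Their median log2 fold change was −0.13, with 25 lower values. With the GC offset the median was −0.34, with 29 lower values, of which 6 were at an unadjusted p under 0.05, against 0 higher. In 35 of the 39 the cocaine-free non-dopaminergic replicate 2 was above the other 3 libraries of its group, where 37.7% of all genes were, and its part in these values was not tested.

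**Figure D2:**
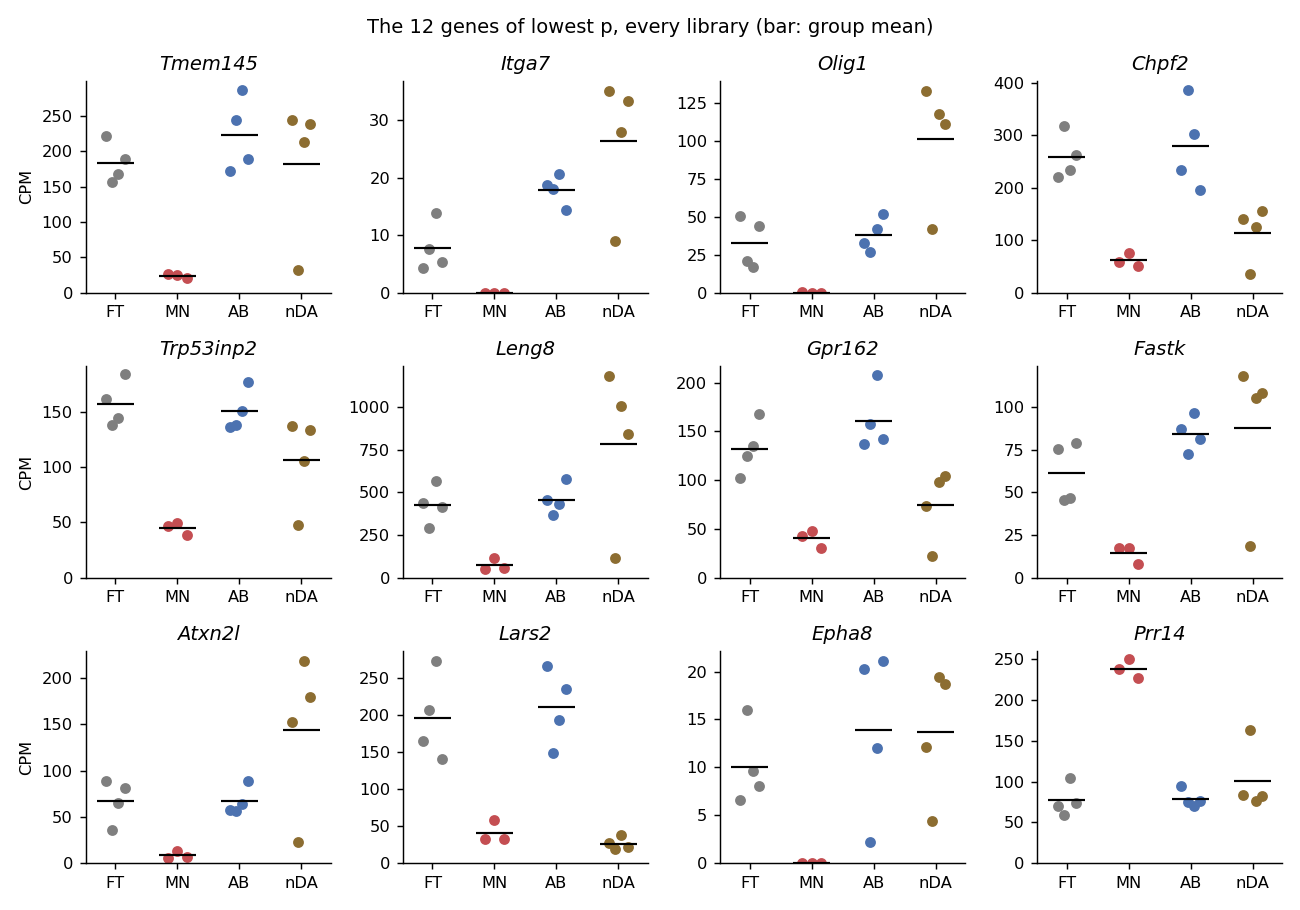
CPM in every library for the 12 genes of lowest p, by group: food-trained (FT), maintenance (MN) and abstinence (AB) dopaminergic nuclei and food-trained non-dopaminergic nuclei (nDA). Points are libraries and bars are group means; maintenance lies below abstinence for 11 genes and above it for Prr14, and non-dopaminergic replicate 2 stands apart from the other 3 of its group in most panels.

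Prr14 was at 239, 250 and 227 CPM at maintenance and at 94.4, 74.8, 70.0 and 76.0 CPM at abstinence. The log2 fold change was −1.60 ± 0.24 (SE; edgeR, adjusted p = 0.0196), and −2.02 with the GC offset (adjusted p = 0.0159). Zc3h13 was at 748, 734 and 955 CPM at maintenance and at 277, 189, 376 and 302 CPM at abstinence. Its log2 fold change was −1.51 ± 0.26 (SE; edgeR, adjusted p = 0.0434) and −1.56 with the GC offset (adjusted p = 0.0464). When each library was left out in turn, Prr14 passed in 3 of 7 fits and Zc3h13 in 1. In the food-trained libraries Prr14 was at 58.6 to 104 CPM and Zc3h13 at 364 to 531 CPM. Maintenance replicate 3 was the highest library for Zc3h13, and the 3 maintenance libraries lay close together for Prr14.

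Other genes that rose encode proteins of the membrane or the presynaptic terminal. They were grouped after their values were seen, and the fixed lists of synaptic vesicle release, postsynaptic scaffold and synaptic organizers had 0 edgeR calls. At an unadjusted p under 0.05 these lists had 2, 2 and 2 genes higher and 1, 1 and 5 lower; DESeq2 called Homer3 and Nrxn2, and limma-voom 0. Jph3, a junctophilin that couples the endoplasmic reticulum to the plasma membrane, rose from 8.81 ± 5.29 CPM (SD, n = 3) to 122 ± 49.3 CPM (SD, n = 4). Kcnh2, a potassium channel of the ERG type, rose from 30.2 ± 10.2 to 122 ± 41.5 CPM, Slc6a7, the brain proline transporter, from 25.0 ± 1.03 to 97.6 ± 33.7 CPM, and Prrt2, a presynaptic regulator of vesicle release, from 23.7 ± 6.08 to 81.6 ± 17.3 CPM. Sept5, a septin of the presynaptic terminal, rose from 14.5 ± 3.23 to 51.1 ± 4.96 CPM, and Plppr3, of a family that shapes axon filopodia, from 97.7 ± 28.6 to 365 ± 94.4 CPM. The adhesion proteins Cadm4, Igsf8 and Cdh24 had log2 fold changes of 1.53, 1.75 and 5.27, and the lipid-anchored protein paralemmin (Palm) one of 2.64. None of these 10 genes passed with the GC offset, where their adjusted p ran from 0.091 for Palm to 0.480 for Cadm4. Their log2 fold changes there were smaller but kept their direction, from 0.80 for Cadm4 to 4.38 for Cdh24.

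The signalling genes that rose were Rap1gap, which turns off the small GTPase Rap1 (log2 fold change 2.38), Arhgdia, which holds small GTPases inactive in the cytosol (1.49), Ip6k1, an inositol hexakisphosphate kinase (1.84), and Rusc1, an adaptor protein of neurons (1.76). The remaining genes were Atf6b, a transcription factor of the unfolded protein response (log2 fold change 1.81), Lypla2, a thioesterase that removes palmitate from proteins (1.91), Celf3, an RNA-binding splicing regulator (2.58), and the zinc finger protein Zfp871 (1.71). Zfp871 was at 69.2, 61.7 and 56.0 CPM at maintenance and at 278, 153, 175 and 211 CPM at abstinence. Of these 8 genes it was the only one to pass with the GC offset (adjusted p = 0.0363). When each library was left out in turn, Zfp871 passed in 0 of 7 fits, as did Ip6k1 and Celf3. Over the 29 genes that rose and had counts at maintenance, log2 fold changes ran from 1.49 to 8.93 with a median of 2.00.

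Fitting the GC trend of each library as an offset left 16 genes past the threshold, 0.0839% of those tested, 11 higher and 5 lower. Of these, 13 were among the 34: Tmem145, Olig1, Itga7, Prr14, Trp53inp2, Atxn2l, Fastk, Pcx, Leng8, Epha8, Zfp871, Lars2 and Zc3h13. The other 3 were lower at abstinence. Erdr1 was at 261, 265 and 233 CPM at maintenance and at 56.1, 48.6, 49.7 and 110 CPM at abstinence, Ajap1, a protein of adherens junctions, was at 159, 153 and 219 CPM against 63.4, 51.0, 90.8 and 61.0 CPM, and Nenf, a secreted neurotrophic protein, was at 117 ± 34.5 CPM (SD, n = 3) against 72.2 ± 13.1 CPM (SD, n = 4). Their adjusted p without the offset were 0.0754, 0.096 and 0.444, and only for Nenf did the libraries of the stages overlap. The share of genes at an unadjusted p under 0.05 became 5.56% higher and 3.53% lower with the offset, and rho between fold change and GC content became −0.0205.

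**Figure D3:**
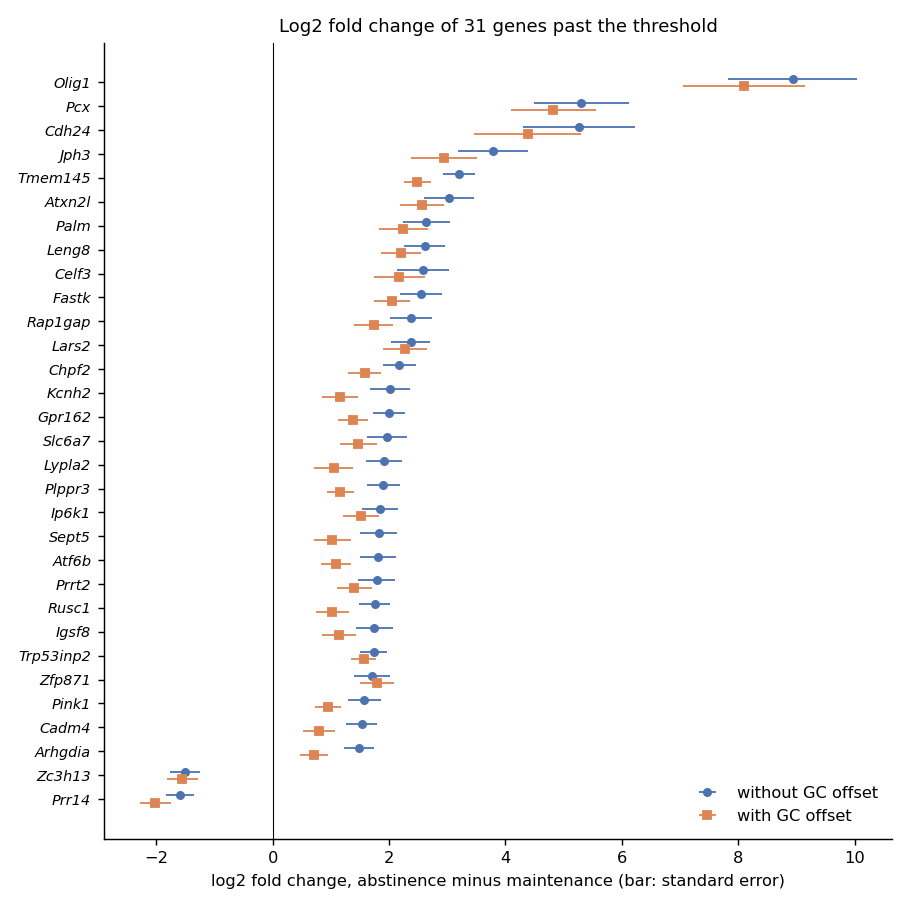
Log2 fold change of abstinence minus maintenance for the 31 genes past the threshold that had more than 3 counts in a maintenance library, without (circles) and with (squares) an offset for the GC trend of each library. Bars are standard errors; most genes that rose lie closer to 0 with the offset, and Prr14 lies further from it.

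**Figure D4:**
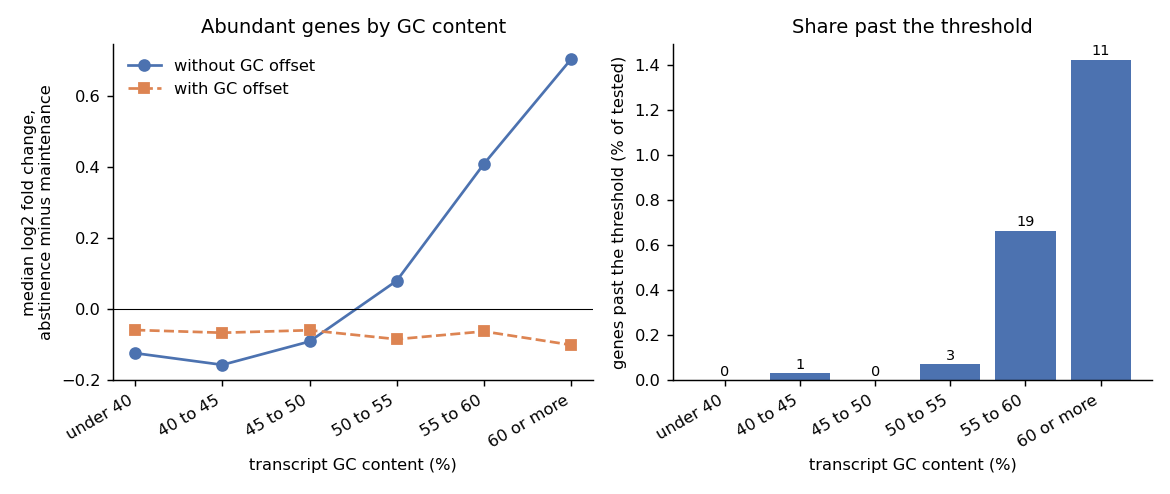
Left, median log2 fold change of abundant genes by transcript GC content, without and with the GC offset; right, share of tested genes past the threshold, with the number of genes above each bar. The median runs from −0.12 to 0.70 without the offset, and the share reaches 1.42% in genes of 60% GC or more.

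The non-dopaminergic replicate 2 library, from mice that never had cocaine, shared the trend. Relative to the mean of all 15 libraries its GC slope was −0.0248, while the 3 others of its group had slopes of 0.0209 to 0.0323, and the food-trained dopaminergic libraries ran from −0.0167 to 0.0182. Its level was below those 3 libraries for 31 of the 32 genes that rose, where 28.3% of all tested genes were, and above them for both genes that fell, where 37.7% were. Tmem145, for example, was at 32.6 CPM in that library and at 214 to 244 CPM in the other 3, and Prr14 was at 163 CPM against 75.9 to 83.1 CPM. Across 8847 abundant genes, the abstinence to maintenance fold change correlated with the fold of the other 3 non-dopaminergic libraries over replicate 2 (rho 0.595, across genes). The labels give no date, lane or preparation batch. A fit of all 15 libraries was also made with a term shared by the maintenance libraries and non-dopaminergic replicate 2, which were put together for their low GC slopes. The size of that term is set by this 1 library against the 3 others of its group, in another cell population, so the changes of sign below rest on that library. In that fit 20 of the 34 genes kept their direction and 1, Itga7, passed the threshold; the other 14, among them Leng8, Gpr162, Fastk, Lypla2 and Pink1, changed sign. Stage and such a shared term cannot be told apart within the dopaminergic libraries.

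The wider pathways were read through 46 gene lists, of which 8 had 1 gene each past the threshold and the other 38 had 0; 26 of the 34 genes were in no list. Some of the lists were written with these genes known, so their counts are no separate evidence. The median log2 fold change of all tested genes was 0.05, and −0.03 with the GC offset, and each list is given beside it. Of all tested genes 52.8% had a value above 0, or 48.1% with the offset. The counts at an unadjusted p under 0.05 in the lists stand against 7.33% of all genes higher and 2.59% lower, or 5.56% and 3.53% with the offset, and the DESeq2 calls against 3.33% and 0.608%.

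Dopamine neuron identity genes had a median of −0.26 (−0.40 with the offset), with 15 of 23 lower at abstinence. By edgeR 0 passed, with 1 higher and 3 lower at an unadjusted p under 0.05, while DESeq2 called Pitx3 higher and Dlk1 lower, and limma-voom 0. Tyrosine hydroxylase (Th), the rate-limiting enzyme of dopamine synthesis, was at 885 ± 394 CPM (SD, n = 3) in the maintenance libraries and 546 ± 57.7 CPM (SD, n = 4) at abstinence (edgeR, adjusted p = 0.53), with a log2 fold change of −0.69, or −0.96 with the offset. The transporter Slc6a3 was at 2562 ± 560 and 2632 ± 655 CPM (adjusted p = 1.00). Dlk1, a Notch-related ligand of dopamine neurons, was at 2046 ± 361 and 994 ± 286 CPM, a log2 fold change of −1.04 (adjusted p = 0.256), and aromatic amino acid decarboxylase (Ddc) had one of −0.79 (adjusted p = 0.492). Pitx3, a transcription factor that these neurons need, had one of 2.97 (adjusted p = 0.21; 2.05 with the offset) and a GC content of 68.3%. The stages did not overlap for 4 of the 23 genes, 1 higher and 3 lower, among them Dlk1, Ddc and Pitx3, against 7.56% and 4.58% of all genes.

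Markers of other neurons had values in both directions. The GABA neuron list had a median of 1.04 (0.12 with the offset); Slc32a1, the vesicular GABA transporter, was at 65.3 ± 14.0 CPM (SD, n = 3) in the maintenance libraries and 134 ± 41.7 CPM (SD, n = 4) at abstinence (log2 fold change 1.04, adjusted p = 0.451; 0.12 with the offset), while Gad1 and Gad2, which make GABA, had log2 fold changes of −0.33 and −0.43. Its members Sox14 and Gata2, transcription factors of midbrain GABA neurons, had 0 counts in all maintenance libraries and 4.06 ± 2.16 and 3.14 ± 2.81 CPM (SD, n = 4) at abstinence. The summed level of the list was 601 to 1078 CPM at maintenance and 766 to 1649 CPM at abstinence. Slc17a6, the glutamate transporter of midbrain neurons, was at 464 ± 185 and 645 ± 200 CPM (adjusted p = 0.92). Astrocyte markers summed to 987 to 1328 and 800 to 1095 CPM, microglia markers to 639 to 1300 and 753 to 1290 CPM, and vascular markers to 12.9 to 76.0 and 53.3 to 152 CPM. All these ranges overlapped, and none of these markers other than Olig1 passed the edgeR test, with 13 of 77 higher and 4 lower at an unadjusted p under 0.05, while DESeq2 called Olig1, Gata2 and Sox14, and limma-voom 0. The part of other cells in the results was not tested.

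Activity and transmission genes gave 0 calls by edgeR and by limma-voom, with 3 activity genes higher and 1 lower, and 7 transmission genes higher and 3 lower, at an unadjusted p under 0.05 by edgeR. DESeq2 called 3 of 17 activity genes (Arc, Jun and Junb) and 4 of 89 transmission genes (Gabrd, Grin1, Grin2c and Homer3), all higher, against 3.33% of all genes. Among 17 immediate early genes tested, which neurons induce within minutes of firing, the median was 0.66 (0.11 with the offset). Junb was at 8.14 ± 1.99 CPM (SD, n = 3) in the maintenance libraries and 29.6 ± 8.29 CPM (SD, n = 4) at abstinence (log2 fold change 1.86, edgeR adjusted p = 0.146, 0.88 with the offset), and Jun had a log2 fold change of 1.34 (adjusted p = 0.193; 0.96 with the offset). Egr2 went the other way (log2 fold change −3.15, edgeR adjusted p = 0.495, −3.26 with the offset). It was at 9.17, 12.4 and 82.2 CPM at maintenance and 1.85 to 6.86 CPM at abstinence, without overlap, and maintenance replicate 3 held most of its level. Arc, which DESeq2 called, had 0 counts in all maintenance libraries and was at 0, 4.69, 17.3 and 0.292 CPM at abstinence, so that abstinence replicate 3 held most of its level and the stages overlapped (edgeR, adjusted p = 0.424). Non-dopaminergic replicate 2, without cocaine, was below the other 3 libraries of its group for 8 of the 17 and above them for 2. Of all genes, 28.3% and 37.7% were so. It was below for Junb (9.77 against 32.9 to 42.4 CPM), Jun and Arc and above for Egr2, and its part was not tested. NMDA receptor subunits had a median of 0.59 (0.54 with the offset). The lowest p was that of Grin2c, at 5.76 ± 3.83 and 34.1 ± 11.3 CPM (log2 fold change 2.57, adjusted p = 0.151; 1.75 with the offset), followed by Grin1, the obligatory subunit (1.24, adjusted p = 0.347; 0.54 with the offset), while Grin3b had the largest log2 fold change (3.05, adjusted p = 0.695; 2.05 with the offset). AMPA and kainate subunits, which carry the fast response to glutamate, had a median of −0.08, and Gria2 was at 1584 ± 158 and 1345 ± 120 CPM (adjusted p = 0.935). Opioid receptors and peptides had a median of −0.33 and nicotinic receptor subunits one of −0.22, with Chrna6 at 917 ± 148 and 696 ± 150 CPM (adjusted p = 0.817).

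Ion channels were split. Of 35 potassium channel genes tested, Kcnh2 rose, 4 including it were higher and 2 lower at an unadjusted p under 0.05, and the median was 0.15. With the offset 2 were higher and 2 lower at that p, 0 passed the threshold, and the median was 0.05. Kcna2, which limits firing at the axon, was at 277 ± 58.7 CPM (SD, n = 3) in the maintenance libraries and 123 ± 38.1 CPM (SD, n = 4) at abstinence (log2 fold change −1.17, edgeR adjusted p = 0.193; −1.09 with the offset). Kcnip4, a partner of A-type channels, was at 122 ± 4.62 and 73.5 ± 6.32 CPM (−0.73, adjusted p = 0.337). Kcnk9, a leak channel, was at 3.94 ± 1.54 and 19.2 ± 4.72 CPM (2.28, adjusted p = 0.205; 2.30 with the offset). Hcn3, a pacemaker channel subunit, was at 28.2 ± 12.4 and 92.2 ± 15.9 CPM (1.71, adjusted p = 0.0866; 1.16 with the offset). DESeq2 called Kcnh2, Kcnk9 and Hcn3 higher and Kcna2 and Kcnip4 lower among the 63 channel genes tested, and limma-voom 0. Non-dopaminergic replicate 2, without cocaine, was below the other 3 libraries of its group for 19 of the 35 potassium channel genes. It was above them for 7. Of all genes, 28.3% were below and 37.7% above. It was below for Kcnh2 (20.0 against 57.3 to 70.2 CPM), Kcnk9 and Hcn3 (15.3 against 59.1 to 60.4 CPM). It was above for Kcna2 and Kcnip4 (46.8 against 35.2 to 42.9 CPM), and its part was not tested. The stages did not overlap for 6 of the 35 potassium channel genes, 3 higher and 3 lower, against 7.56% and 4.58% of all genes.

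Of 135 adhesion and matrix genes, Itga7 and Chpf2 rose by edgeR and were also the 2 called by limma-voom. DESeq2 called 12 higher, among them Chpf, Bcan, Xylt2, Chst3, Lamb2, Pcdhga9, Pcdhgc3 and Pcdhgc5, and 1 lower. Integrins, laminins and collagens had a median of 0.69 (0.29 with the offset), with 21 of 28 higher and Itga7 past the threshold. The chondroitin sulfate list had a median of 0.30, with Chpf2 past the threshold and 5 genes higher and 2 lower at an unadjusted p under 0.05. With the offset its median was 0.15, with 3 higher and 3 lower at that p and 0 past the threshold. Chpf, the paralogous enzyme, was at 79.2 ± 12.3 CPM (SD, n = 3) in the maintenance libraries and 342 ± 148 CPM (SD, n = 4) at abstinence (log2 fold change 2.11, edgeR adjusted p = 0.127; 1.52 with the offset). Brevican (Bcan), a proteoglycan of perineuronal nets, was at 66.0 ± 29.6 and 178 ± 19.3 CPM (1.43, adjusted p = 0.264; 0.60 with the offset). Among the protocadherins Pcdhgc3 had 0 counts at maintenance and 22.3 ± 12.0 CPM (SD, n = 4) at abstinence (adjusted p = 0.0866). The synaptic organizers had a median of −0.15, and 2 of 24 were higher and 5 lower at an unadjusted p under 0.05. With the offset the median was −0.34, with 0 higher and 5 lower at that p. Nrxn2, a presynaptic adhesion protein with 62.4% GC, had a log2 fold change of 0.88 that became −0.07 with the offset.

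The chromatin lists, to which the study's title points, had 0 of 152 genes past the threshold by edgeR and by limma-voom, and 12 higher and 9 lower at an unadjusted p under 0.05 by edgeR, against 7.33% and 2.59% of all genes. DESeq2 called 5 higher (Atf7ip, Cbx6, Phf1, Ring1 and Sin3b) and 4 lower (Chd6, Crebbp, Hdac8 and Kmt2a), against 3.33% and 0.608% of all genes. The Polycomb list, of proteins that keep genes silent, had 24 of 29 genes higher at abstinence and a median of 0.35, which was 0.31 with the GC offset, with 21 higher, where 52.8% and 48.1% of all genes were higher. At an unadjusted p under 0.05, 4 of the 29 were higher and 0 lower. Non-dopaminergic replicate 2 was below the other 3 libraries of its group for 12 of the 29 and above them for 9, against 28.3% and 37.7% of all genes. It was below for the genes named next, with Phf1 at 7.50 against 42.2 to 53.9 CPM, Ring1 at 20.6 against 73.1 to 98.4 CPM and Cbx7 at 5.78 against 22.4 to 42.4 CPM, and its part was not tested. Phf1 was at 10.9 ± 7.47 CPM (SD, n = 3) in the maintenance libraries and 58.6 ± 16.04 CPM (SD, n = 4) at abstinence (log2 fold change 2.43, edgeR adjusted p = 0.12), Ring1, of the complex that ubiquitinates histone H2A, was at 25.3 ± 15.0 and 99.6 ± 48.5 CPM (1.98, adjusted p = 0.161), and Cbx7 was at 1.89 ± 2.60 and 30.3 ± 2.46 CPM (adjusted p = 0.482). The list of H3K9 methylation and HP1 had a median of 0.37 with 12 of 16 higher, and 0.24 with 9 of 16 higher with the offset; Setdb1, a methyltransferase for H3K9, was at 17.1 ± 6.45 and 41.5 ± 14.9 CPM (1.28, adjusted p = 0.404; 1.29 with the offset), and its partner Atf7ip had a log2 fold change of 0.74 (adjusted p = 0.342). Deacetylases and corepressors had a median of 0.46, and 0.09 with the offset, with Sin3b at 27.3 ± 4.03 and 73.4 ± 11.7 CPM (1.42, adjusted p = 0.0716; 1.01 with the offset).

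Of 22 acetyltransferases and H3K4 methyltransferases, which set activating marks, 4 were lower and 0 higher at an unadjusted p under 0.05, both without and with the offset, where 2.59% and 3.53% of all genes were lower. The other 5 chromatin genes lower at that p were in other lists, among them the deacetylase Hdac8 (log2 fold change −1.40, adjusted p = 0.356) and the remodeller Chd6 (−0.66, adjusted p = 0.363). Crebbp, an acetyltransferase, was at 258 ± 35.6 CPM (SD, n = 3) in the maintenance libraries and 132 ± 40.2 CPM (SD, n = 4) at abstinence (log2 fold change −0.97, edgeR adjusted p = 0.266). Kmt2a, which methylates H3K4, was at 716 ± 181 and 333 ± 86.1 CPM (−1.10, adjusted p = 0.271), and Setd1b at 76.3 ± 13.1 and 26.3 ± 13.7 CPM (−1.54, adjusted p = 0.356; −2.23 with the offset). The list's median was 0.01, and −0.11 with the offset. Non-dopaminergic replicate 2, without cocaine, was above the other 3 libraries of its group for 8 of the 22 and below them for 9. Of all genes, 37.7% and 28.3% were so. It was above for Crebbp (319 against 184 to 237 CPM), Setd1b (74.3 against 39.7 to 49.4 CPM) and Hdac8 (48.5 against 29.2 to 30.5 CPM). For Kmt2a (362 against 344 to 420 CPM) and Chd6 (261 against 221 to 271 CPM) it lay within the others. Its part was not tested.

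Of 38 cytosolic ribosomal proteins, 32 were lower at abstinence, 3 of them at an unadjusted p under 0.05, and the median was −0.29; 47.2% of all genes were lower, and 2.59% were so at that p. By edgeR and limma-voom 0 passed, and by the DESeq2 test Rps3 was lower. With the GC offset 37 were lower, 11 of them at an unadjusted p under 0.05, and the median was −0.47, where 51.8% of all genes were lower and 3.53% were so at that p. Non-dopaminergic replicate 2, without cocaine, was above the other 3 libraries of its group for all 38, against 37.7% of all genes. This count is on CPM without the offset, and the part of that library's trend in the values was not tested. Rps3 was at 117 ± 6.02 CPM (SD, n = 3) in the maintenance libraries and 70.3 ± 7.71 CPM (SD, n = 4) at abstinence (log2 fold change −0.73, edgeR adjusted p = 0.274). Among 28 genes of the unfolded protein response and chaperones Atf6b rose and 6 were lower at an unadjusted p under 0.05. Hsp90aa1, a cytosolic chaperone, was at 441 ± 52.3 and 204 ± 15.1 CPM (−1.11, adjusted p = 0.0801; −1.02 with the offset), and Hspa8 was at 1176 ± 307 and 622 ± 182 CPM (−0.92, adjusted p = 0.417). DESeq2 called Hsp90aa1 and Hsp90ab1 lower, and limma-voom Hsp90aa1. Non-dopaminergic replicate 2 was above its group for 19 of the 28, with Hsp90aa1 at 251 against 111 to 147 CPM and Rps3, of the ribosomal list, at 56.2 against 27.5 to 30.3 CPM. The stages did not overlap, with abstinence lower, for 8 of the 38 ribosomal genes and 5 of these 28, against 4.58% of all genes.

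In the autophagy list Trp53inp2 rose, and Wipi2 and Atg9a, which act when the autophagosome forms, had log2 fold changes of 1.68 (adjusted p = 0.167) and 2.04 (adjusted p = 0.171). DESeq2 called all 3 higher and limma-voom Trp53inp2. The list's median was 0.05, and 0.02 with the offset. Iron handling had a median of 0.86 over 12 genes (0.79 with the offset): the transferrin receptor Tfrc was at 134 ± 12.1 CPM (SD, n = 3) in the maintenance libraries and 242 ± 71.3 CPM (SD, n = 4) at abstinence (0.85, edgeR adjusted p = 0.417), and the iron transporter Slc11a2 had a log2 fold change of 0.91 (adjusted p = 0.478). Of 22 genes of protein palmitoylation and its removal, 17 were higher and Lypla2 rose, and 15 were higher with the offset. DESeq2 called Lypla2 and Zdhhc8 higher, and limma-voom 0. In the splicing and RNA methylation list, Zc3h13 fell, and Srrm2, a scaffold of nuclear speckles, was at 296 ± 103 and 603 ± 144 CPM (1.03, adjusted p = 0.351), which DESeq2 called higher. The circadian clock list had a median of 0.25 (0.21 with the offset), and Dbp, an output gene of the clock, had a log2 fold change of 1.23 (adjusted p = 0.488; 0.43 with the offset).

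**Figure D5:**
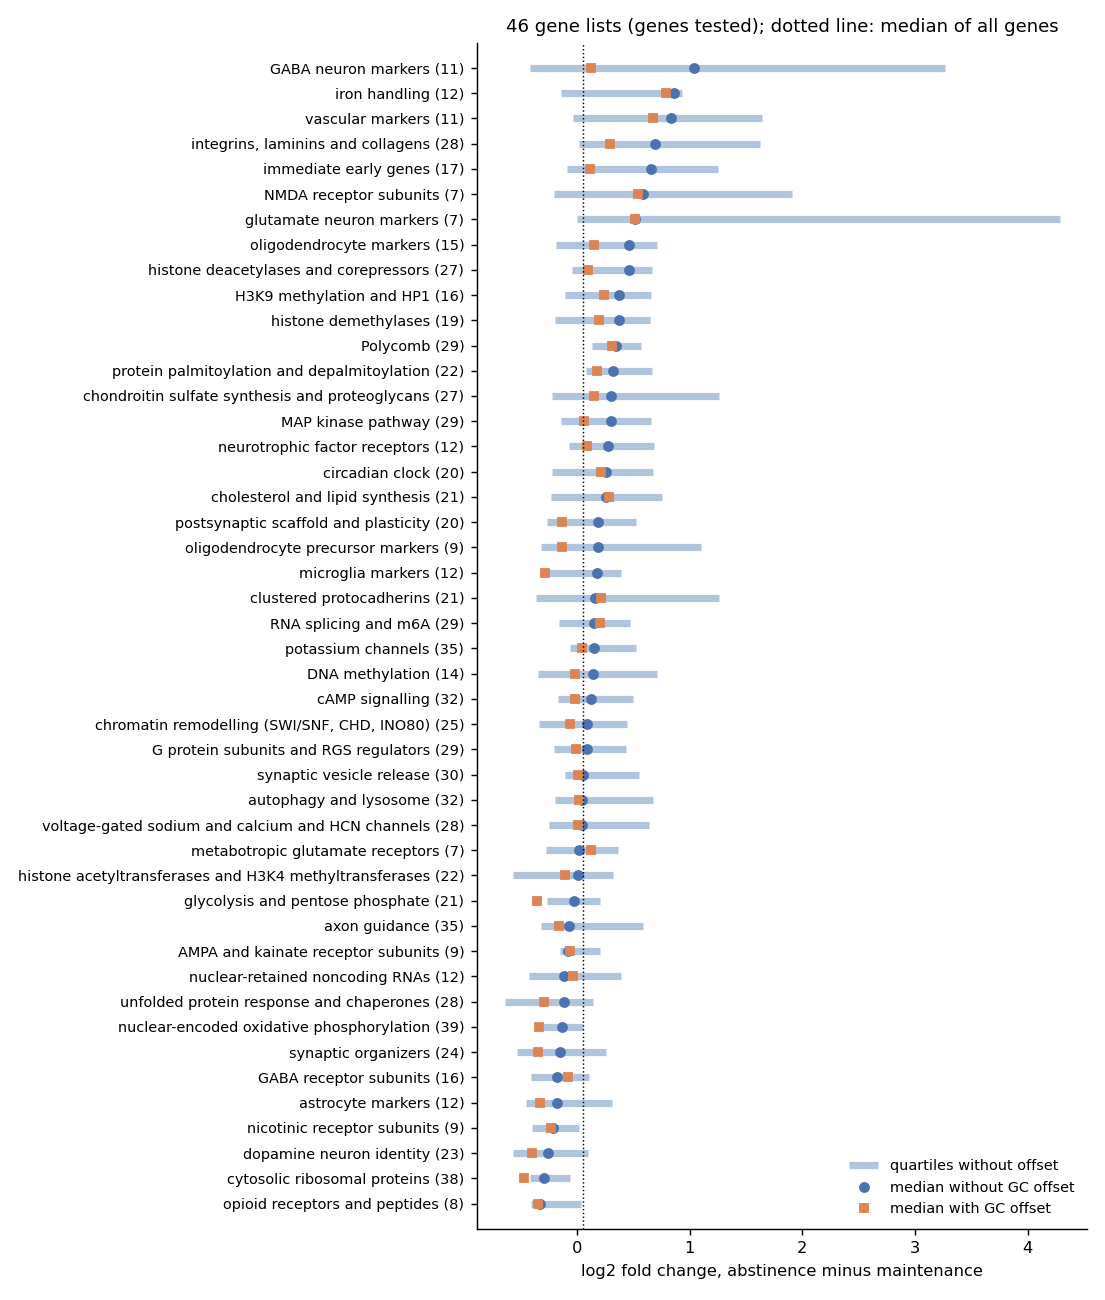
Median log2 fold change of abstinence minus maintenance for 46 gene lists, without (circles) and with (squares) the GC offset; bars are the quartiles without the offset, the number of genes tested is in brackets, and the dotted line is the median of all tested genes, 0.05. Without the offset GABA neuron markers and iron handling have the highest medians and opioid receptors and peptides and ribosomal proteins the lowest; with it the median of GABA neuron markers is 0.12, that of iron handling 0.79 and that of ribosomal proteins −0.47.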

How the data were processed

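The authors deposited whole-number counts per gene for 35976 gene symbols in 15 libraries. The submitters' processing notes name Trim Galore 0.6.7, cutadapt 1.18, STAR 2.7.10a, StringTie 2.1.5 and DESeq2 1.38.3 and the build mm10 (GRCm38), with no roles; the annotation and any use of strand are not given in the sources used here, so overlapping genes and near-identical copies are uncertain. Libraries were made from normalized RNA input with a low-input amplifying kit, per the labels' protocols, without molecular identifiers, so any precision from counts covers counting error only. A second deposited table, named as normalized, held the same counts (0 cells differed in its 10 columns) and was not used.

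Counts were analysed with edgeR 4.0.16 in R 4.3.3: filterByExpr, TMM scaling and the two-sided quasi-likelihood F-test of abstinence minus maintenance in a fit of the 11 dopaminergic libraries, with Benjamini-Hochberg adjustment over 19060 genes at 0.05. Standard errors are the log2 fold change over the square root of F. CPM are scaled with TMM factors of all 15 libraries. A fold against a group with at most 3 counts in every library was computed against 3 counts per library. GC content came from GENCODE M21 (26763 symbols matched directly, 511 by an older symbol, 8702 without a value); slopes used genes with a mean log2 CPM over 4, and the GC offset was a spline with 4 degrees of freedom per library. Abundant genes had a mean of at least 16 CPM. All genes past the threshold are named, with up to 4 members of lowest p per list and the cell type markers; some of these are not reported here. The comparison, gene lists and tests were chosen with earlier results of these data known. limma 3.58.1 and DESeq2 1.42.0 served as alternatives, and the scripts were tested on simulated data.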

Additional observations from a re-analysis of the deposited data

Results flagged for a closer look

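Of 135 groups of 4 libraries checked with Dixon's test at the 95% level, which flags about 5% by chance, 12 held a library far from its group. In 10 of them it was non-dopaminergic replicate 2, the library that shared the GC slope of the maintenance libraries. Its levels were the lowest of the group for Tmem145 (32.6 CPM), Fastk (18.4 CPM), Palm (20.5 CPM), Arhgdia (25.0 CPM), Celf3 (18.7 CPM), Sept5 (13.7 CPM), Prrt2 (24.7 CPM), Slc6a7 (32.1 CPM) and Pink1 (37.1 CPM), all genes that rose between maintenance and abstinence. The 3 other libraries were at 70.9 to 71.2 CPM for Arhgdia and at 49.8 to 53.2 CPM for Sept5, for example. It was the highest of the group for Prr14 (163 CPM against 75.9 to 83.1 CPM), which fell. Genes of one library are not independent of each other, and the genes were those past the threshold of the comparison.

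In the food-trained dopaminergic libraries, replicate 2 was low for Prrt2, at 49.3 CPM against 81.8 to 86.4 CPM, and replicate 4 was high for the summed vascular markers, at 215 CPM against 16.01 to 32.6 CPM. No abstinence library stood apart in this way for any of the genes past the threshold. The maintenance group of 3 libraries is too small for the test.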

How the results depend on the processing

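The count of 34 genes moved with the setting. It was 32 with DESeq2 size factors, 37 without a filter and 30 with limma-voom, of which 32, 34 and 18 were among the 34. It was 22 with upper quartile scaling, 69 with at least 10 counts in every library, 22 with the 7 libraries only (17 of them among the 34), 732 with the DESeq2 test, 16 with the GC offset, 1 with the GC slope of each library as a covariate (Btbd10, outside the 34), 1 with a term over 15 libraries shared by the maintenance libraries and non-dopaminergic replicate 2, put together for their GC slopes and not by a labelled batch, and 15 without that term, an alternative chosen after seeing the data. Leaving out 1 library gave 6 to 73 calls: 6, 73 and 7 without maintenance replicates 1, 2 and 3, and 14, 12, 6 and 27 without abstinence replicates 1 to 4. Tmem145, Itga7 and Olig1 passed in all 7 of these fits, and Ip6k1, Celf3, Prrt2, Zfp871 and Cdh24 in 0. The DESeq2 test on the same genes called 619 higher and 113 lower; the cause of the difference was not tested. All 34 kept their direction in every setting other than that with the shared term; with at least 10 counts in every library 29 of them were tested. With that term the log2 fold change was −0.51 for Leng8, −0.062 for Gpr162, −0.038 for Fastk, −0.35 for Plppr3, −0.37 for Rusc1, −0.63 for Rap1gap, −1.73 for Lypla2, −0.067 for Atf6b, −0.020 for Arhgdia, −0.095 for Sept5, −0.45 for Prrt2, −0.29 for Pink1, −0.28 for Cadm4 and −0.12 for Igsf8; the cause was not tested. With the replicate number as a block there were 2 calls (Olig1 and Tmem145), and 1 (Tmem145) with the block and the GC offset together. Libraries of the same number did not deviate together (correlations of −0.0277, −0.0753 and 0.0083), and those of different numbers had correlations of −0.0345 to 0.0520. With so few pairs this cannot decide whether the numbers stand for shared processing, and the labels do not say. The difference in GC slope was 0.0318 when genes of a mean log2 CPM above 6 were used, 0.0425 with transcript length in the fit and 0.0321 to 0.0409 without 1 library. The folds of Itga7, Epha8 and Mapkapk2 are set by the floor of 3 counts, which covers counting error only, so they are not strict lower bounds. A library can hold 0 counts of a gene that others of its group hold: Pcdhga9 was at 0, 16.7, 24.3 and 14.2 CPM in abstinence replicates 1 to 4.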

Other observations

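By their positions in GENCODE M21 (GRCm38), 14 of the 34 genes lay within 1 Mb of another of them, in 5 groups. This was noticed after the genes were known. Kcnh2, Fastk and Chpf2 spanned 0.275 Mb of chromosome 5 (24319589 to 24594556), Palm and Plppr3 0.0811 Mb of chromosome 10, and Cadm4 and Tmem145 0.834 Mb of chromosome 7. Lypla2, Epha8, Rap1gap and Pink1 spanned 2.36 Mb of chromosome 4. Atxn2l, Prrt2 and Prr14 lay within 0.985 Mb of chromosome 7 (126491708 to 127476759), and of these Atxn2l and Prrt2 rose while Prr14 fell. Whether more genes lie together than their GC content and gene density would give was not tested.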
